A study of Mus musculus with 48 samples.

Results

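Arntl, Clock and Npas2 encode the activators of the circadian clock. Their 3 rows were taken by gene symbol from a table of 25229 genes, by a rule that holds no measured value although earlier results of these data were known, and were followed through all 48 RNA sequencing libraries of the series. All 3 passed the filter on low counts in both tissues (3 of 3 in arcuate nucleus, 3 of 3 in nodose ganglion). The mice were male, of the C57Bl/6J strain and 10 to 12 weeks old, and every mouse, controls included, was homozygous for floxed Rev-erba and Rev-erbb (Nr1d1 and Nr1d2). They were housed in 12 hours of light and 12 hours of dark at 27 C with chow always available, and were injected in the tail vein at 6 to 10 weeks of age, from 2 to 4 weeks before collection. Control mice received AAV8-TBG-EGFP, a virus that expresses a green fluorescent protein, and HepDKO mice received AAV8-TBG-Cre, which expresses Cre recombinase. TBG is a hepatocyte promoter, so the deletion was aimed at liver cells and not at the tissues sequenced. The arcuate nucleus, a feeding centre at the base of the brain, was sampled by micropunch. The other tissue was the left nodose ganglion, where the sensory neurons of the vagus nerve have their cell bodies. Samples were taken at ZT4, ZT10, ZT16 and ZT22, where ZT (zeitgeber time) counts the hours from lights on, with 3 libraries in each of 16 groups. Each library was a pool of mice, 4 for a nodose library and 3 for an arcuate library by the treatment label, while the series' design text allows up to 4. p-values therefore measure the spread between pools.

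The mammalian clock is a feedback loop of transcription. The proteins BMAL1 (the product of Arntl) and CLOCK bind each other through their PAS domains and, as a pair, bind E-box sequences in DNA and switch on the Period, Cryptochrome and Rev-erb genes, whose products later shut the pair down. NPAS2 is a close relative of CLOCK that can take its place beside BMAL1. The other loop controls the activators: ROR receptors activate and REV-ERB receptors repress genes that carry ROR elements, and Arntl is the best known of these. Arntl RNA is accordingly rhythmic in most tissues, Npas2 in many, and Clock RNA usually varies little.

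The libraries differed between tissues in depth and in makeup. Arcuate libraries held 15483922 to 20399718 counts and nodose libraries 1813994 to 10422914, and the 2 shallowest were nodose Control ZT4 replicate 1 and Control ZT16 replicate 3. Arcuate libraries were made by a sequencing company and nodose libraries with a ribosomal RNA depletion kit, so what differs by tissue and what differs by preparation cannot be told apart. In arcuate libraries the 5 general neuron markers summed to 2487 to 3155 CPM (on the counts-per-million scale) and the 5 arcuate neuron markers to 107 to 205 CPM, Pomc, Npy and Agrp among them. In nodose libraries the same neuron markers summed to only 17.4 to 69.2 CPM, and of the vagal neuron markers, P2rx2 and Scn10a each had a median of 0, Trpv1 had one of 1.498 CPM and Piezo2, which encodes a mechanosensitive channel, one of 70.0 CPM. Schwann cell markers summed to 15161 to 40586 CPM there, skeletal muscle markers to 3454 to 65313 CPM and adipocyte markers to 179 to 1755 CPM. The 3 hepatocyte markers summed to 18.4 to 264 CPM in nodose libraries (median 32.1) and to 2.37 to 45.1 CPM in arcuate libraries. The nodose values therefore describe whole dissected tissue in which general neuron markers were low, and whether more cells of a type or more RNA per cell set a value cannot be told apart in bulk samples. In arcuate libraries the 5 markers of the suprachiasmatic nucleus, the central pacemaker nearby, summed to 26.6 to 73.6 CPM, with Vip at a median of 1.13 CPM. The 3 markers of the ventromedial hypothalamus summed to 131 to 224 CPM there (median 170), beside a median of 135 CPM for the 5 arcuate neuron markers. These sums are over different genes and do not compare cell numbers. Arcuate values therefore describe a punch that was not limited to arcuate neurons. A library in each tissue, arcuate HepDKO ZT10 replicate 3 and nodose HepDKO ZT10 replicate 2, held 1914 and 1694 counts of Xist, an RNA of female cells, although the labels say male. Because the deletion was in liver, Nr1d1 and Nr1d2 counts in these tissues do not check it; between genotypes they differed by 0.06 and -0.07 on the log2 scale in arcuate and by 0.06 and 0.07 in nodose libraries.

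By the GENCODE annotation of mm10, Arntl spans chr7:113207465-113314126 on the plus strand, Clock spans chr5:76209868-76304792 on the minus strand and Npas2 spans chr1:39193731-39363236 on the plus strand. The Arntl exons overlap those of an antisense gene, Gm45355, by 33 bp. The sequence around the Arntl start is shown because it holds 2 close copies of the letters AAAGTAGGTNA, of the kind that ROR and REV-ERB receptors bind, inside the first annotated exon. The letters are the AGGTCA of the Arntl window with the 5 bases before it, and N stands where a repeat in the same window with 1 mismatch differs. Capitals mark the copies, which lie at positions -10 to 0 and 26 to 36 from an annotated RefSeq start.
Arntl copy 1, chr7:113207492-113207520: attggtcggAAAGTAGGTTAgtggtgcga
Arntl copy 2, chr7:113207528-113207556: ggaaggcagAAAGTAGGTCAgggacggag
The motif was thus chosen after the Arntl sequence had been read. On both strands of 32851 RefSeq promoter windows of 300 bases (mm10), 0.0609% (20 windows) held it and 1 window, that of Arntl, held 2 copies. The shorter half-site AGGTCA, which is part of the second copy, occurred in 16.3% of windows, and the E-box CACGTG in 7.15%. Stretches before a first exon are shown so that the 3 genes can be compared. For Arntl and Clock they end where the annotated gene begins, while that of Npas2 lies inside the annotated gene, after the first exon of a shorter transcript and before the first exon of the transcript that reaches the end of the gene.
Arntl, chr7:113207215-113207464, plus strand: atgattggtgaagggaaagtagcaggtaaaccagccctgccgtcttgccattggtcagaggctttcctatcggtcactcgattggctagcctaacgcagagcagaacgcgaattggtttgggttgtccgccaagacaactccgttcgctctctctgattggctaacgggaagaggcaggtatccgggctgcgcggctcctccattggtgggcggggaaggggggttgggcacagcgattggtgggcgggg
Clock, chr5:76304793-76305042, minus strand: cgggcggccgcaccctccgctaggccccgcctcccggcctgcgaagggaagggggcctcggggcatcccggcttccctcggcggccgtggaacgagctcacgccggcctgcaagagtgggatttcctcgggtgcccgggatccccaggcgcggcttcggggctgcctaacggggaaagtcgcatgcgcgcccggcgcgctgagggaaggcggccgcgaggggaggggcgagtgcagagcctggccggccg
Npas2, chr1:39194022-39194211, plus strand: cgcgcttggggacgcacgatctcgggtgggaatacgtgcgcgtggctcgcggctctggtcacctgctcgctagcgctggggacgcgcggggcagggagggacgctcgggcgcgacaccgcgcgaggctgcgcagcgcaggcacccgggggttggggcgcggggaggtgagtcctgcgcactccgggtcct
These 3 stretches held none of the 3 motifs, and their GC content was 58.8% for Arntl, 76.4% for Clock and 75.3% for Npas2. A further RefSeq window of Clock, chr5:76303453-76303752 inside the gene, held 1 AGGTCA on the opposite strand, at position -119 from its start. A match or its absence in these windows describes letters only.

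Arntl RNA was highest late in the night and lowest late in the day in both tissues, with a wide swing in nodose libraries and a narrow one in arcuate libraries. In Control nodose libraries, Arntl stood at 30.9, 32.0 and 19.8 CPM at ZT4, 2.55, 4.52 and 2.52 CPM at ZT10, 11.7, 13.3 and 18.5 CPM at ZT16 and 48.1, 39.3 and 47.999 CPM at ZT22. In HepDKO nodose libraries it stood at 39.7, 30.7 and 16.3 CPM at ZT4, 3.17, 5.85 and 5.24 CPM at ZT10, 16.9, 18.4 and 28.1 CPM at ZT16 and 46.6, 40.7 and 53.7 CPM at ZT22. All 6 ZT10 libraries were below every other library, and all 6 ZT22 libraries were above all those of ZT10 and ZT16. The order was ZT22, ZT4, ZT16, ZT10, and of neighbours in it only ZT16 and ZT10 did not overlap. The mean at ZT22 was 11.6 times that at ZT10, 14.1 times in Control and 9.89 times in HepDKO mice. The lowest values rested on few reads: 14 reads of 6144343 in Control ZT10 replicate 1, or 2.28 CPM of the unscaled total with a 95% Wilson interval of 1.36 to 3.82, which covers counting error only.

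In Control arcuate libraries, Arntl stood at 30.3, 29.3 and 29.5 CPM at ZT4, 21.9, 21.6 and 24.5 CPM at ZT10, 25.6, 29.4 and 23.9 CPM at ZT16 and 34.7, 28.9 and 32.0 CPM at ZT22. In HepDKO arcuate libraries it stood at 28.2, 29.9 and 25.1 CPM at ZT4, 22.3, 23.6 and 25.03 CPM at ZT10, 27.9, 28.4 and 24.6 CPM at ZT16 and 30.3, 35.9 and 31.7 CPM at ZT22. The order of times was the same as in nodose libraries, each time overlapped its neighbour in that order, and every ZT22 and every ZT4 library was above every ZT10 library. The mean at ZT22 was 1.39 times that at ZT10, 1.41 times in Control and 1.38 times in HepDKO mice. The lowest arcuate library still held 361 Arntl counts.

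**Figure D1:**
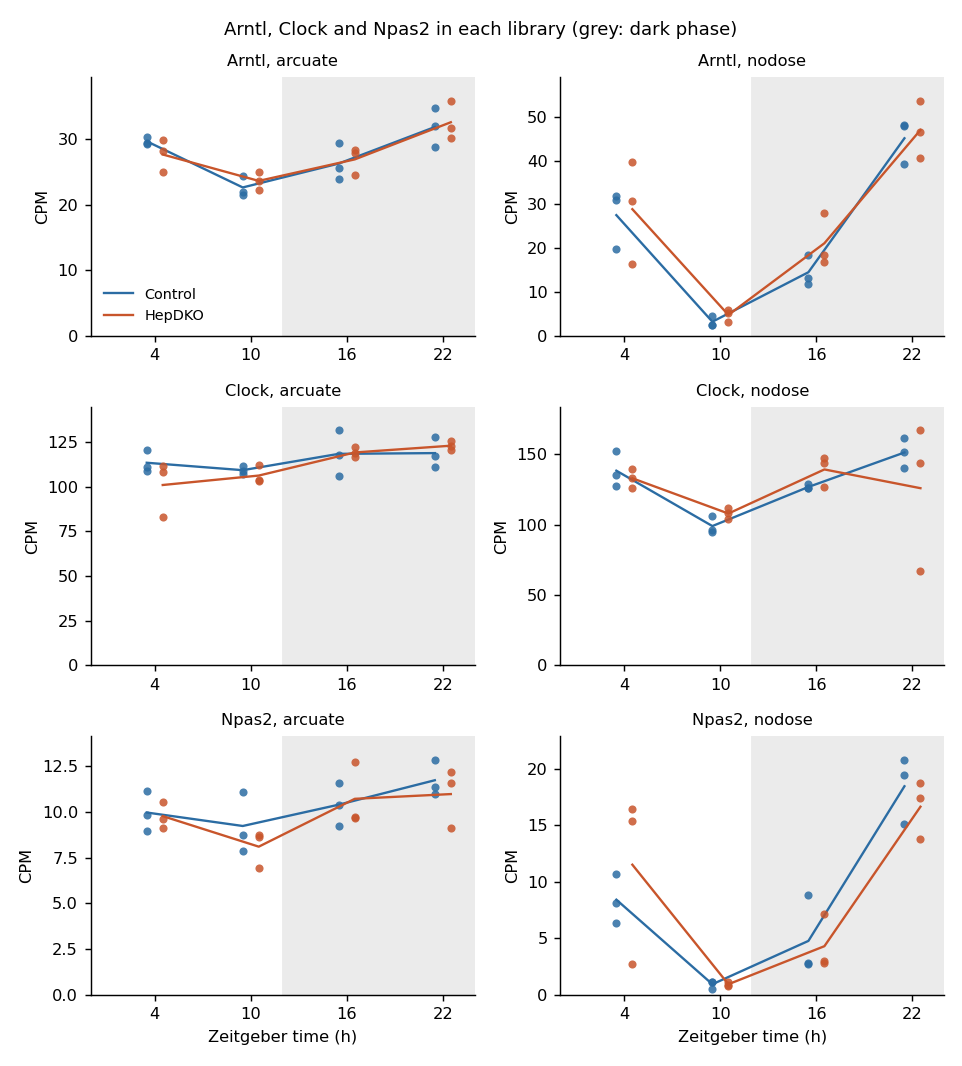
Level in CPM of Arntl, Clock and Npas2 by ZT in arcuate and nodose libraries. Each point is 1 library, lines join the means of the 3 libraries of a genotype, and each panel has its own vertical axis. In nodose panels Arntl and Npas2 drop to their lowest at ZT10 in both genotypes, from means of 45.1 and 18.4 CPM at ZT22 in Control to 3.20 and 0.933 CPM, while Clock stays between 66.7 and 167 CPM.

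Npas2, whose product can take the place of CLOCK, had the widest range of the 3 activators in nodose libraries as a fold. In CPM its range was the narrowest, 0.547 to 20.8 against 2.52 to 53.7 for Arntl and 66.7 to 167 for Clock. In Control Npas2 stood at 6.38, 10.7 and 8.13 CPM at ZT4, 0.547, 1.13 and 1.12 CPM at ZT10, 2.78, 2.705 and 8.80 CPM at ZT16 and 20.8, 15.1 and 19.4 CPM at ZT22. In HepDKO it stood at 16.4, 15.4 and 2.75 CPM at ZT4, 0.907, 1.14 and 0.748 CPM at ZT10, 3.00, 2.78 and 7.11 CPM at ZT16 and 17.4, 18.7 and 13.7 CPM at ZT22. All 6 ZT10 libraries were again below every other library, and the order of times was that of Arntl, with only ZT16 and ZT10 apart among neighbours. The mean at ZT22 was 18.8 times that at ZT10, 19.8 times in Control and 17.8 times in HepDKO mice. ZT10 libraries held 3 to 11 Npas2 counts each, so their level was poorly fixed: 3 reads of 6144343 in the lowest gave 0.488 CPM of the unscaled total with a Wilson interval of 0.166 to 1.44. At ZT4, replicate 3 was lowest in Arntl in both genotypes, at 19.8 CPM against 30.9 and 32.0 in Control and at 16.3 against 30.7 and 39.7 in HepDKO. For Npas2 it was low in HepDKO alone, at 2.75 CPM against 15.4 and 16.4. The same ZT4 libraries were highest in Dbp, at 45.6 CPM against 9.82 and 19.2 in Control and 43.99 against 17.1 and 17.1 in HepDKO. At ZT16, replicate 3 was highest in Npas2 in both genotypes, at 8.80 CPM against 2.705 and 2.78 in Control and 7.11 against 2.78 and 3.00 in HepDKO, and highest in Arntl too. Of these ZT16 libraries the Control one was shallow (2889210 counts) and the HepDKO one was not (8087901 counts).

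In arcuate libraries Npas2 was the lowest of the 3 and its range was narrow. In Control it stood at 8.94, 9.83 and 11.1 CPM at ZT4, 11.1, 8.72 and 7.85 CPM at ZT10, 10.4, 11.6 and 9.22 CPM at ZT16 and 10.95, 12.9 and 11.4 CPM at ZT22. In HepDKO it stood at 10.5, 9.62 and 9.14 CPM at ZT4, 6.90, 8.65 and 8.73 CPM at ZT10, 9.73, 12.7 and 9.67 CPM at ZT16 and 9.12, 12.2 and 11.6 CPM at ZT22. ZT22 had the highest mean and ZT10 the lowest, 1.31 times apart, but their libraries overlapped, as did all neighbours in the order ZT22, ZT16, ZT4, ZT10. Within genotypes, ZT22 and ZT10 overlapped in Control (1.27 times) and did not in HepDKO mice (1.36 times).

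Clock was the most abundant of the 3 and moved the least as a fold. In nodose Control it stood at 135, 152 and 127 CPM at ZT4, 94.5, 106 and 95.9 CPM at ZT10, 126, 126 and 129 CPM at ZT16 and 152, 161 and 141 CPM at ZT22. In nodose HepDKO it stood at 140, 133 and 126 CPM at ZT4, 108, 104 and 112 CPM at ZT10, 144, 126 and 148 CPM at ZT16 and 167, 144 and 66.7 CPM at ZT22. The 6 ZT10 libraries were below all others with 1 exception, HepDKO ZT22 replicate 3, which at 66.7 CPM was the lowest of the 24. The mean at ZT22 was 1.34 times that at ZT10, 1.53 times in Control, where the libraries did not overlap, and 1.17 times in HepDKO mice, where they did.

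In arcuate Control, Clock stood at 109, 121 and 111 CPM at ZT4, 107, 112 and 109 CPM at ZT10, 106, 118 and 132 CPM at ZT16 and 128, 117 and 111 CPM at ZT22. In arcuate HepDKO it stood at 108, 112 and 82.9 CPM at ZT4, 104, 112 and 103 CPM at ZT10, 117, 122 and 119 CPM at ZT16 and 126, 122.7 and 121 CPM at ZT22. The highest mean, at ZT22, was 1.13 times the lowest, at ZT4, with overlap between the times. HepDKO ZT4 replicate 3 was the lowest of the 24 libraries at 82.9 CPM.

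In arcuate libraries Clock tracked the balance of long and short transcripts in a library, and in each tissue the library with its lowest level had the lowest value of that balance. A transcript-length score was taken for each library as the median log2 CPM of tested genes whose longest transcript has at least 6000 nt minus that of genes under 2000 nt; the longest Clock transcript has 9744 nt, against 3995 for Arntl and 4236 for Npas2. A length was found for 98.2% of the genes tested. In arcuate libraries the score was 2.25 in HepDKO ZT4 replicate 3 and 2.64 to 2.94 in the others, and in nodose libraries it was lowest, at 2.29, in HepDKO ZT22 replicate 3, followed by 2.37. With each library expressed as its deviation from the mean of its group, Clock and the score had a Pearson r of 0.89 over 24 arcuate libraries (permutation within groups, p = 0.00428; adjusted over 14 relations, 0.0599) and a Spearman rho of 0.80 (p = 0.00176; adjusted, 0.0246). Without the 2 libraries farthest from the median in Clock, r was 0.81, and it was 0.78 in Control and 0.96 in HepDKO alone. In nodose libraries r was 0.75 (permutation p = 0.0324; adjusted, 0.113) and rho 0.60 (p = 0.0264; adjusted, 0.0925), and r fell to 0.36 without the 2 farthest libraries, so the nodose relation rested on those. It was 0.31 in nodose Control and 0.90 in nodose HepDKO libraries. For Arntl r was 0.47 in arcuate and 0.08 in nodose libraries, and for Npas2 it was 0.13 and 0.10 (permutation, adjusted p of 0.31 or more each). By time, the median score was 2.73, 2.72, 2.84 and 2.83 at ZT4, ZT10, ZT16 and ZT22 in arcuate libraries and 2.57, 2.47, 2.60 and 2.58 in nodose libraries, in both lowest at ZT10. The score was not tested against time. Since its medians differed between times, its part in the time course of Clock cannot be told apart, and the fits below with the score as a covariate give only the value that remains.

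**Figure D2:**
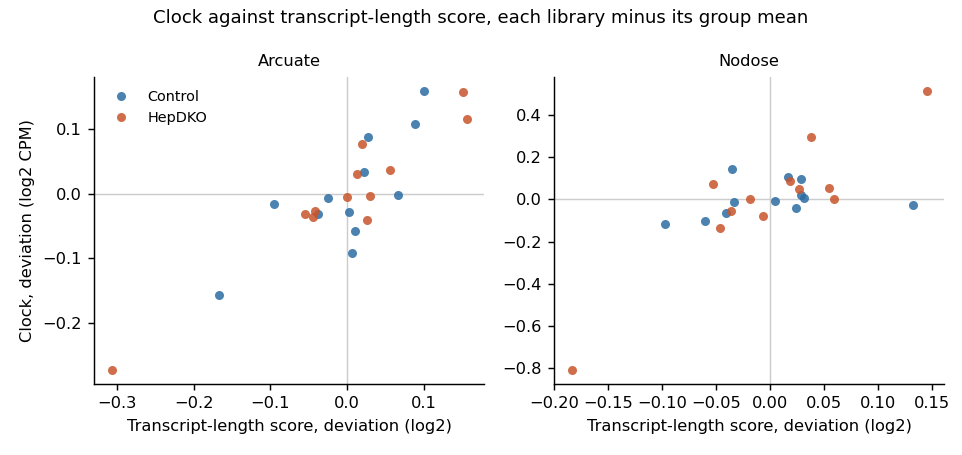
Deviation of Clock (log2 CPM minus the mean of its group, vertical axis) against the deviation of the transcript-length score (horizontal axis), 1 point for each library, with a panel for each tissue. The arcuate points rise together (r of 0.89), and the nodose r of 0.75 falls to 0.36 without the 2 farthest libraries; HepDKO ZT4 replicate 3 (arcuate) and HepDKO ZT22 replicate 3 (nodose) lie at the lower left.

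By the test of a 24-hour rhythm, Arntl and Npas2 cycled in nodose ganglion and Arntl in arcuate nucleus. The test was fitted on all genes with edgeR and averaged over genotypes, with the amplitude given as log2 from mean to peak. In nodose libraries, where 1.33% of all genes passed the threshold (198 of 14867), Arntl had an amplitude of 1.79 (SE 0.114), a peak at ZT 22.7 (SE 0.215) and an adjusted p of 9.05e-09, a fitted range of 12.0-fold. Npas2 had an amplitude of 2.17 (SE 0.231), a peak at ZT 23.1 (SE 0.322) and an adjusted edgeR p of 1.02e-05, a fitted range of 20.3-fold. The peaks of Arntl and Npas2 thus lay shortly before lights on and 0.335 hours apart, within their errors. Clock did not pass, with an amplitude of 0.21 (SE 0.0684) and an adjusted edgeR p of 0.283. That result turned on 1 library: without HepDKO ZT22 replicate 3 the amplitude of Clock was 0.29 and the adjusted edgeR p 0.000379. With the transcript-length score as a covariate, and all libraries kept, the nodose amplitude of Clock was 0.13 (adjusted p = 0.325).

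In arcuate libraries 3.86% of genes passed (622 of 16102), and of the activators Arntl did. Its amplitude was 0.24 (SE 0.0331), its peak ZT 22.8 (SE 0.513) and its adjusted edgeR p 0.000289, a fitted range of 1.40-fold, and it passed without each of the 24 libraries in turn. Npas2 had an amplitude of 0.20 (SE 0.053), a peak at ZT 21.1 (SE 0.988) and an adjusted edgeR p of 0.0625. Clock had an amplitude of 0.11 (SE 0.0301), a peak at ZT 19.2 (SE 1.03) and an adjusted edgeR p of 0.0707. Both lay just above the threshold and passed it in DESeq2 (adjusted p of 0.0266 for Npas2 and 0.041 for Clock). In edgeR Npas2 also passed without Control ZT10 replicate 1, HepDKO ZT22 replicate 1 or HepDKO ZT4 replicate 3 (lowest adjusted p 0.0324). Clock passed without Control ZT16 replicate 1 or any 1 of the 3 HepDKO ZT4 libraries (lowest adjusted edgeR p 0.0271). With the transcript-length score as a covariate, the arcuate amplitude of Clock was 0.04 (edgeR adjusted p = 0.449), while those of Arntl and Npas2 were 0.23 (7.37e-05) and 0.19 (0.118).

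Within each genotype, Arntl passed in both tissues. In nodose libraries its amplitude was 1.94 (SE 0.164, peak ZT 22.9) in Control and 1.65 (SE 0.159, peak ZT 22.5) in HepDKO mice, with adjusted edgeR p of 4.15e-06 and 2.72e-05, where 0.242% and 0.121% of all genes passed. The nodose amplitude of Npas2 was 2.17 in both, with SE of 0.316 and 0.335 and adjusted edgeR p of 0.00277 and 0.00284. In arcuate libraries, where 0.261% and 0.379% of all genes passed, the amplitude of Arntl was 0.26 (edgeR adjusted p = 0.0235) in Control and 0.23 (0.0464) in HepDKO mice. Those 2 arcuate calls were fragile. In Control the call was lost without 1 of 8 Control libraries (all 3 of ZT4, ZT10 replicates 1 and 2, ZT16 replicate 3, ZT22 replicates 1 and 3), with the adjusted edgeR p up to 0.126. In HepDKO it was lost without 1 of 15 libraries (all 9 of HepDKO ZT10, ZT16 and ZT22, all 3 of Control ZT4, Control ZT10 replicates 1 and 2 and Control ZT22 replicate 3), with the adjusted p up to 0.201. Arcuate Npas2 (edgeR adjusted p = 0.713 in Control, 0.207 in HepDKO) and Clock (0.914 and 0.131) did not pass in either genotype, nor did nodose Clock (0.41 and 0.938). Arcuate Clock passed in HepDKO without HepDKO ZT4 replicate 2 (amplitude 0.19), and nodose Clock in Control without HepDKO ZT22 replicate 3, a library that enters that test only through the shared estimate of spread (amplitude 0.31 with and without it, adjusted edgeR p 0.00833 without).

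**Figure D3:**
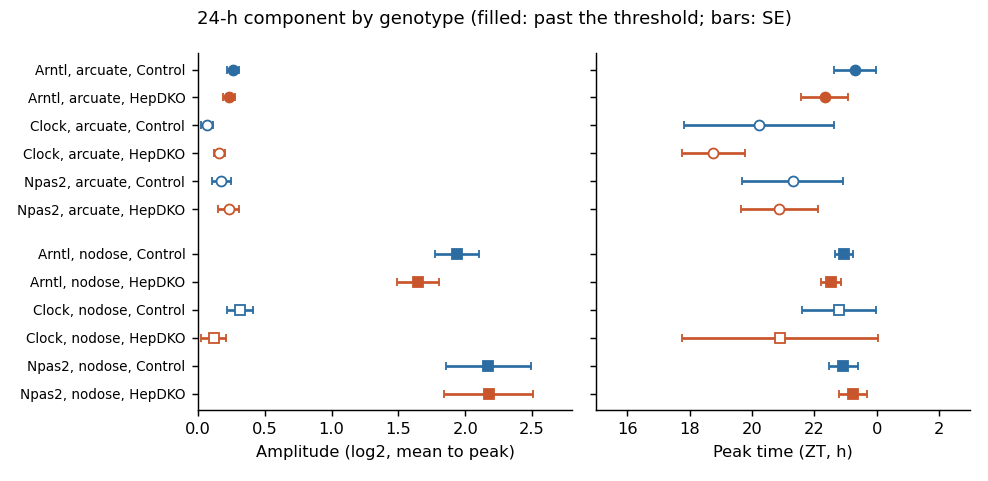
Amplitude (log2 from mean to peak) and peak time (ZT hours) of the fitted 24-hour rhythm of each activator, by tissue and genotype. Points are estimates, bars are 1 SE, and filled points passed the threshold; nodose Arntl and Npas2 sit between 1.65 and 2.17, all arcuate estimates below 0.3.

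The rhythm itself was larger in nodose than in arcuate libraries for Arntl and Npas2. The difference of the fitted rhythms was tested with each tissue keeping its own spread, and 0.373% of 13937 genes tested in both tissues passed. For Arntl the difference had an amplitude of 1.55 (SE 0.119; edgeR fits, F test adjusted p = 7.89e-07), with nodose amplitude 7.31 times the arcuate one. For Npas2 it had an amplitude of 2.00 (SE 0.235; edgeR fits, adjusted p = 0.000335), a ratio of 10.7. For Clock it was 0.15 (SE 0.0748; adjusted p = 0.622), a ratio of 1.87 that did not pass. Both calls were kept without each of the 48 libraries in turn, with muscle and adipocyte scores as nodose covariates (adjusted p of 7.91e-07 and 0.000185) and with arcuate counts thinned to nodose depth (8.03e-07 and 0.000512). The peak of Arntl was at ZT 22.8 in arcuate and ZT 22.7 in nodose libraries, and that of Npas2 at ZT 21.1 (SE 0.988) and ZT 23.1 (SE 0.322), so for Arntl the tissues differed in size of swing at nearly the same phase. Clock, which did not pass in either tissue, had fitted peaks at ZT 19.2 and ZT 22.3. The test covers tissue and preparation together.

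No difference between HepDKO and Control passed for any activator. Libraries of the genotypes overlapped at 4 of 4 times for each activator in each tissue. The share of all genes with such overlap was not counted, so this is a description only. Over the 4 times, HepDKO minus Control in arcuate libraries was 0.01 for Arntl (log2, 95% interval -0.09 to 0.10), -0.04 for Clock (-0.12 to 0.05) and -0.07 for Npas2 (-0.22 to 0.08), with adjusted edgeR p of 0.979, 0.797 and 0.785. Leaving out 1 library moved the arcuate value of Clock between -0.057 (without Control ZT16 replicate 1) and -0.0064 (without HepDKO ZT4 replicate 3). It moved that of Npas2 between -0.10 (without HepDKO ZT16 replicate 2) and -0.028 (without Control ZT10 replicate 1). In nodose libraries it was 0.32 for Arntl (0.00 to 0.64; unadjusted edgeR p of 0.0463, adjusted 1.00), -0.02 for Clock (-0.22 to 0.19) and 0.07 for Npas2 (-0.55 to 0.68). The nodose Arntl estimate, the largest of these, came from ZT10 (0.56, SE 0.375) and ZT16 (0.58, SE 0.286) more than from ZT4 (0.09) and ZT22 (0.06), and its ZT16 value had an unadjusted edgeR p of 0.0546. Single libraries moved these values: the ZT10 effect ranged from 0.37 without HepDKO ZT10 replicate 2 to 0.93 without Control ZT10 replicate 2, and the ZT16 effect from 0.30 without HepDKO ZT16 replicate 3 to 0.76 without Control ZT16 replicate 3. The background was 0% of genes in both tissues: edgeR called 0 of 16102 and 0 of 14867 genes, with 1387 and 497 at an unadjusted p under 0.05, and DESeq2 called 23 and 3. The interval was widest for nodose Npas2, and for arcuate Clock and Arntl it ended within 0.13 on the log2 scale.

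Shape and phase of the rhythms were also not distinguishable between genotypes. The difference in rhythm (HepDKO minus Control) had an amplitude of 0.07 for Arntl, 0.10 for Clock and 0.06 for Npas2 in arcuate libraries (edgeR adjusted p = 0.999 each). Leaving out 1 library moved the arcuate value of Arntl between 0.036 (without Control ZT16 replicate 3) and 0.11 (without Control ZT16 replicate 2), and that of Clock between 0.052 and 0.14 (without HepDKO ZT4 replicates 3 and 2 in turn). In nodose libraries it was 0.35 for Arntl (SE 0.216, upper 95% bound 0.799), 0.22 for Clock (SE 0.137) and 0.18 for Npas2 (SE 0.365, upper bound 0.942), with adjusted edgeR p of 0.982, 0.982 and 0.989. Without HepDKO ZT22 replicate 3 the nodose Clock value was 0.097, and without HepDKO ZT22 replicate 1 it was 0.34. Here too edgeR called 0% of genes in each tissue, with 382 arcuate and 421 nodose genes at an unadjusted p under 0.05, and DESeq2 called 1 and 0. No difference between tissues in the genotype effect passed for Arntl (0.32 on the log2 scale, SE 0.154, unadjusted edgeR p of 0.0455, adjusted 1.00), Clock (0.02) or Npas2 (0.14), in a fit in which edgeR called 0% of 17478 genes, 827 had an unadjusted p under 0.05 and DESeq2 called 13.

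Counted against Clock in the same library, Arntl and Npas2 RNA changed in proportion through the day in nodose libraries. At ZT22 there were 24.3 to 80.5 Arntl counts for every 100 Clock counts (median 30.0), and at ZT10 there were 2.63 to 5.63 (median 3.60). The value of 80.5 belonged to HepDKO ZT22 replicate 3, the library with low Clock. Npas2 went from 9.34 to 20.6 per 100 Clock counts at ZT22 (median 13.4) to 0.579 to 1.17 at ZT10 (median 0.952). ZT4 and ZT16 lay between, with medians of 21.9 and 13.1 for Arntl and 6.72 and 2.21 for Npas2. In arcuate libraries the medians stayed between 21.3 and 26.7 for Arntl and between 7.76 and 9.77 for Npas2 at all 4 times. These are ratios of counts, not of molecules, and carry the length of each gene.

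Per kilobase of all annotated exons, the mean level over 24 arcuate libraries was 8.29 CPM per kb for Clock (SD 0.737), 3.68 for Arntl (SD 0.518) and 2.11 for Npas2 (SD 0.32). Over the 24 nodose libraries it was 9.30 for Clock (SD 1.71), 3.19 for Arntl (SD 2.21) and 1.72 for Npas2 (SD 1.48), where the SD of Arntl and Npas2 is mostly time of day. Clock was the most abundant activator at every time on this scale, at ZT22 in nodose libraries by 10.1 against 6.12 for Arntl and 3.66 for Npas2. The choice of length mattered for that last comparison, because per kilobase of the longest coding transcript nodose Arntl at ZT22 (15.5 CPM per kb, SD 1.79) lay level with Clock (14.2, SD 3.76). At ZT10 Clock was far ahead on either scale, by all exons at 7.53 against 0.529 for Arntl and 0.195 for Npas2.

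**Figure D4:**
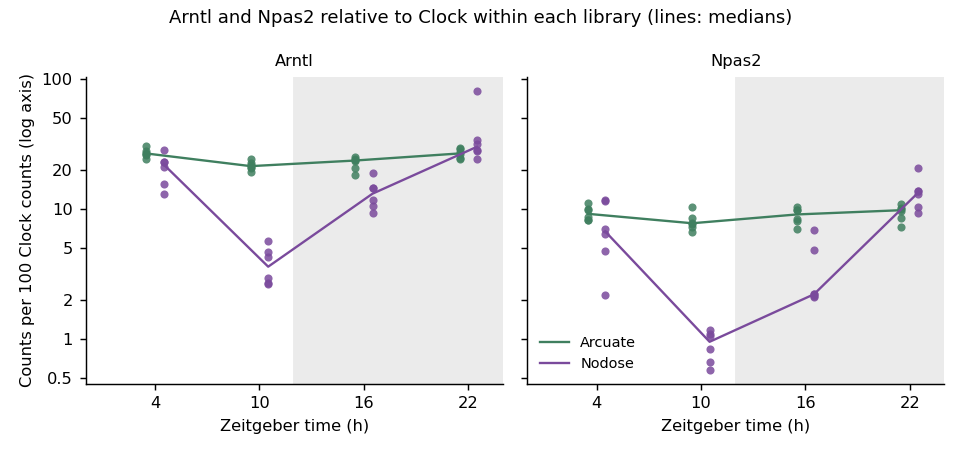
Arntl and Npas2 counts per 100 Clock counts of the same library (log axis) by ZT in each tissue; points are libraries and lines join medians of 6. Nodose medians fall from 30.0 and 13.4 at ZT22 to 3.60 and 0.952 at ZT10, and arcuate medians stay within 21.3 to 26.7 and 7.76 to 9.77.

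The genes that the BMAL1 dimer activates through E-boxes mostly had fitted peaks between ZT 6.72 and ZT 13.2 in both tissues, far from those of Arntl. Of 18 listed E-box targets, 11 passed the rhythm test in arcuate libraries (61.1%, against 3.86% of all genes) with a median amplitude of 0.19 over the 18 (0.07 over all genes), and 13 of 17 tested did in nodose libraries (76.5%, against 1.33%) with a median of 0.67 over the 17 (0.12 over all genes). Nr1d1, the gene of the repressor REV-ERBα, peaked 8.11 hours after Arntl in arcuate (amplitude 0.41, edgeR adjusted p = 3.72e-08) and 7.97 hours after it in nodose libraries (1.74, 9.05e-09). Dbp, a transcription factor and the output most used as a clock readout, peaked 9.65 and 10.3 hours after Arntl (amplitudes 0.63 and 1.94, adjusted edgeR p of 3.72e-08 and 9.81e-06). Nr1d2, the gene of REV-ERBβ, peaked at ZT 9.62 and ZT 9.66 (amplitudes 0.22 and 1.20). Per3, a Period gene, passed in both tissues as well (adjusted edgeR p of 0.000701 and 9.59e-06). Per2, whose protein represses the dimer, came later, at ZT 13.2 (0.31, edgeR adjusted p = 3.27e-07) and ZT 12.4 (1.34, 0.000222). By level, Nr1d1 had its highest mean at ZT4 in both tissues, with libraries that overlapped those of ZT10, while Dbp and Nr1d2 were highest at ZT10. Nr1d1, Nr1d2, Per2 and Dbp also differed in rhythm between tissues (adjusted F test p of 1.02e-06, 5.23e-05, 0.00763 and 0.00368, fits in edgeR), with nodose amplitudes 4.27, 5.57, 4.33 and 3.09 times the arcuate ones beside 7.31 for Arntl and 10.7 for Npas2; whether those ratios differ between genes was not tested.

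In the list of ROR-element regulators and targets, Nr1d1, Nr1d2 and Cry1 are also on the E-box list. Of its 7 genes, 3 passed in arcuate libraries (Nr1d1, Nr1d2 and Cry1, 42.9% against 3.86% of all genes), and of 6 tested 4 passed in nodose libraries, the same 3 and Nfil3 (66.7% against 1.33%). Cry1, a repressor of the dimer, peaked at ZT 15.2 in arcuate and ZT 17.8 in nodose libraries, and Nfil3, a repressor that competes with Dbp, at ZT 19.8 in nodose libraries (amplitude 1.08, edgeR adjusted p = 0.00292). Rora, the gene of a ROR receptor, did not pass in either tissue. Of genes for cofactors, kinases and ligases that act on the activators, 3 of 23 passed in arcuate libraries (Ciart, Sirt1 and Sfpq, 13% against 3.86% of all genes). In nodose libraries 1 of 23 did (Ciart, a repressor of the dimer that is also in the E-box list, 4.35% against 1.33%). The median amplitude of the 23 was 0.06 in each tissue, beside 0.07 and 0.12 over all genes. Of other genes of the same protein family, Npas3 alone of 13 passed in arcuate libraries (7.69% against 3.86% of all genes; amplitude 0.22, edgeR adjusted p = 0.00141) and 0 of 9 in nodose libraries. Arntl2, the nearest relative of Arntl, had amplitudes of 0.09 and 0.20 that did not pass (adjusted edgeR p of 0.479 and 0.59).

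**Figure D5:**
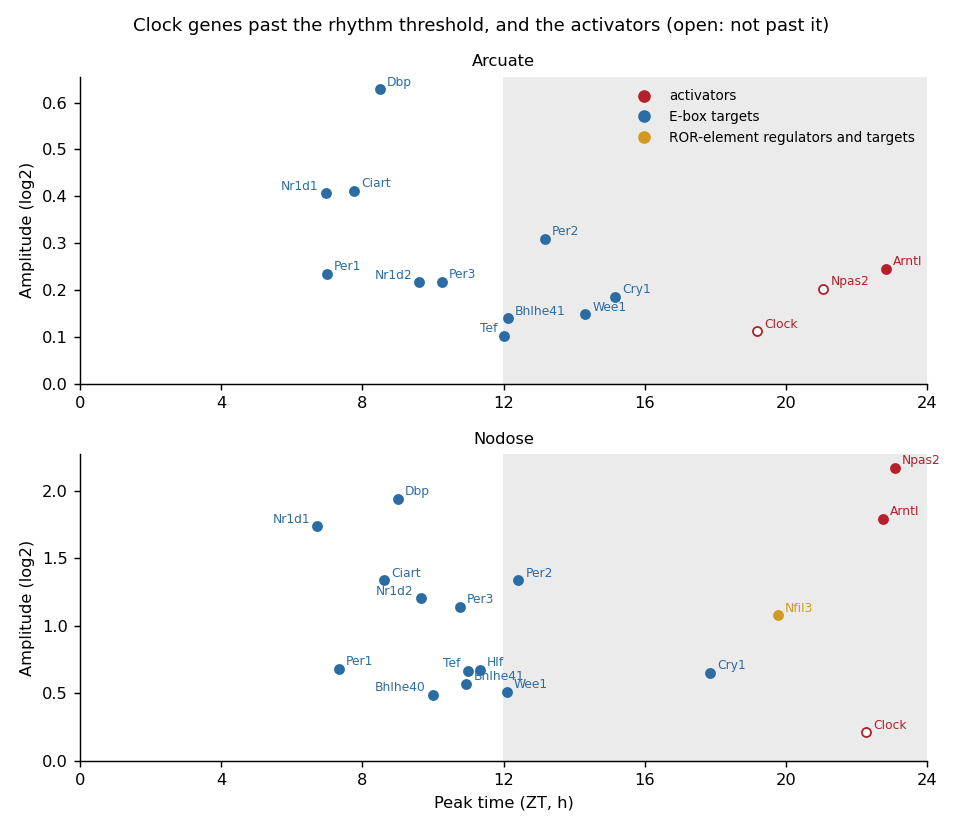
Peak time (ZT hours, horizontal axis) against amplitude (log2 from mean to peak, vertical axis) of the activators and of genes of the E-box and ROR-element lists that passed the rhythm test, with a panel for each tissue; genes in both lists take the E-box colour. Arntl and Npas2 peak near ZT 23 in nodose libraries, while most E-box targets peak between ZT 6.72 and ZT 13.2.

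Of all 14866 other genes tested in nodose libraries, Npas2 was the most like Arntl and Arntl the most like Npas2, with a Pearson r of log2 CPM of 0.95 over the 24 libraries. These r describe libraries that share time of day, genotype, depth and tissue makeup. Next for both came Adamts15 (0.92 with each), an extracellular protease gene, followed for Arntl by Tiam2 (0.87), Efnb2 (0.86) and Adamts4 (0.84), and for Npas2 by Dtx4 (0.84), Mmp14 (0.84) and Clmp (0.84). The most opposite were clock outputs and repressors: Tef, Per3, Hlf and Bhlhe41 for both, from -0.92 to -0.89 with Arntl and from -0.96 to -0.90 with Npas2, then Dbp for Arntl (-0.86) and Nr1d2 for Npas2 (-0.87). Clock was less like Arntl and Npas2 (0.52 with each) than like Acer3, Reps2, Vps13b, Ccdc88a and Bclaf3 (0.86 to 0.87). Its opposites were Rere, Mybbp1a, Cuedc1, Klhl21 and Hdgf (-0.85 to -0.83). HepDKO ZT22 replicate 3, the nodose library lowest in Clock, is among the 24, and r without it was not computed. Nodose genes with an r with Clock above 0.8 numbered 37, with a median longest transcript of 5441 nt. Below -0.8 there were 16, with a median of 3184.5 nt, beside 3392 nt over all genes tested.

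In arcuate libraries the pattern of Arntl was closest to Trim9 (0.83), Kank1 (0.80), Sgpp2 (0.80), Mmp14 (0.77) and Id2 (0.77), and most opposite to Ifit3 (-0.81), Per3 (-0.80), Hnrnpk (-0.77), Psmc2 (-0.75) and Ucp2 (-0.74). Npas2 ranked only 92 in likeness to Arntl there (0.60), and its own closest genes were Wdr20 (0.73), Fer1l5 (0.72), Trim9 (0.72), 1700071M16Rik (0.69) and DQ267101 (0.68). Its most opposite were 4930479D17Rik (-0.80), Fam184b (-0.74), Ier3ip1 (-0.71), Coq10b (-0.70) and Eid1 (-0.67). Clock was closest to Zfp397, Trim2, Mgat4a, Ttbk2 and Golgb1 (0.90 to 0.92) and most opposite to Commd9, Ssbp4, Tmem59l, Mif and Uchl1 (-0.91 to -0.88). As many as 281 arcuate genes had an r with Clock above 0.8, with a median longest transcript of 8171 nt, and 93 had one below -0.8, with a median of 1657 nt, beside 3328 nt over all genes tested. For arcuate Arntl the counts were 2 and 2, and for arcuate Npas2 0 and 0.

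Within groups, where time of day and genotype are held, Arntl and Npas2 tended to deviate together in nodose libraries. The deviations had a Pearson r of 0.71 (permutation within groups, p = 0.00992; adjusted over 14 relations, 0.0694) and a Spearman rho of 0.67 (p = 0.00903; adjusted, 0.0632), neither of which passed after adjustment. Without the 2 libraries farthest from the median in Arntl, HepDKO ZT4 replicate 3 and HepDKO ZT10 replicate 1, r was 0.65, and it was 0.58 in Control and 0.79 in HepDKO alone. In arcuate libraries r was 0.29 (permutation, adjusted p = 0.567).

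A component of the nodose Arntl time course beyond the 24-hour wave was called by DESeq2 and not by edgeR. This component of 12 hours, the mean of ZT4 and ZT16 minus that of ZT10 and ZT22 on the log2 scale and divided by 2, was 0.35 (SE 0.0763), as ZT10 lay further below the mean than ZT22 lay above it. That holds on the log2 scale only, and the ZT10 libraries held 14 to 44 Arntl counts. In CPM, ZT10 (mean 3.98) lay no further below the mean of 24.0 than ZT22 (mean 46.1) lay above it. The unadjusted edgeR p of the component was 0.000141 and its adjusted p 0.368, in a test that called 0% of nodose genes (1029 at an unadjusted p under 0.05), while DESeq2 called 8 genes, Arntl among them (adjusted p = 0.0192). For nodose Npas2 the component was 0.33 (SE 0.147; edgeR adjusted p = 0.708) and for nodose Clock 0.08 (0.717). In arcuate libraries, where 0.0124% of genes passed (2 genes), it was 0.01 for Arntl, -0.01 for Clock and 0.02 for Npas2. With 4 times in a day, nothing can be said of shorter rhythms, and a peak time is a fit between sampled hours.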

How the data were processed

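Per the submitters' processing notes, reads were handled with FastQC 0.11.7, Trim Galore 0.6.10 and STAR 2.7.10b on mm10; the counting tool, annotation and strand setting are not given in the sources used here. The authors deposited raw counts per gene symbol for 48 libraries. The 24 libraries of a tissue entered 1 fit in R 4.3.3 with limma 3.58.1 and edgeR 4.0.16: filterByExpr, TMM factors, robust quasi-likelihood tests with 1 mean per group, and Benjamini-Hochberg adjustment over all genes at 0.05. CPM used TMM-scaled totals; log2 CPM took a prior count of 2. The 24-hour test (2 degrees of freedom) used ZT4 minus ZT16 and ZT10 minus ZT22. In all 22 tests across genes were run, and the code was tested on simulated data. Alternatives included DESeq2 1.42.0, RLE factors, no filter, a replicate block, covariates and leaving out libraries. Same-group libraries differed by more than sampling noise (lowest chi-square per degree of freedom 2.89). Named were the 3 activators, 4 reference genes (Nr1d1, Nr1d2, Per2, Dbp), up to 4 called genes of each list by adjusted p, and for likeness the 5 highest and 5 lowest r; Arntl2 and Rora in the account of the lists were added after their values were seen. The members and lists were chosen with earlier results of these data known. Protein sequences were not used here.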

Additional observations from a re-analysis of the deposited data

Results flagged for a closer look

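The 24-hour rhythms of Arntl and of Npas2 differed between the tissues by a test of the difference itself, with edgeR fits for each tissue. The difference had an amplitude of 1.55 on the log2 scale for Arntl (adjusted p = 7.89e-07) and of 2.00 for Npas2 (adjusted p = 0.000335), the larger swing being in nodose libraries in both cases. All 6 nodose ZT10 libraries lay below every other nodose library for both genes. The libraries of the tissues also differed in preparation, depth and marker genes, which cannot be told apart from tissue. Groups of 3 are too small for the range check of single libraries, and those that stood apart by other measures are named beside the results they touch.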

How the results depend on the processing

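Nodose Arntl and Npas2 kept their rhythm calls, and the tissue difference in rhythm kept its calls for both, under each alternative and without each library in turn. Beside the values below, 447 of 469 values of the 3 activators under other settings stayed on the same side of the threshold with the same sign, and 127 of 157 counts of called genes stayed within 1.5 times. In DESeq2, called genes numbered 1076 (arcuate rhythm), 100 (in Control), 320 (in HepDKO), 1 (rhythm difference), 20 (12-hour component), 23 (genotype) and 5 (genotype at ZT4) in arcuate libraries, 381, 136, 71, 8 (12-hour component) and 3 (genotype) in nodose libraries, and 13 for the genotype effect between tissues. There the arcuate rhythm passed for Clock (amplitude 0.11) and Npas2 (0.20) and the 12-hour component passed for nodose Arntl (0.35), the ZT16 genotype effect of nodose Npas2 was -0.073, and the tissue difference in genotype effect of Clock was -6.19e-06 (-1.56e-05 with RLE factors). Fitting a genotype alone gave 37 rhythmic arcuate genes in HepDKO, Arntl no longer among them (0.23), and 12 nodose genes in Control. Alternatives added after seeing the data were the covariate for transcript length and leaving out the shallowest nodose libraries (Control ZT4 replicate 1 and Control ZT16 replicate 3).

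With the transcript-length score as a covariate, called genes were 86 (Control rhythm), 39 (HepDKO rhythm), 21 (12-hour) and 1 (genotype) in arcuate, 357 (rhythm), 28 (HepDKO) and 5 (12-hour) in nodose libraries, and 110 between tissues. Directions then turned for the arcuate genotype effect of Clock (0.034), of Arntl, Clock and Npas2 at ZT4 (0.0031, 0.018 and 0.022) and of Clock at ZT10 (0.027), and in nodose libraries for Clock in the rhythm difference (0.090), the 12-hour component (-0.0057) and the genotype effect over all times (0.019), at ZT4 (0.11) and at ZT10 (-0.19). Without those shallow libraries, 117 nodose genes were rhythmic, 10 in Control, and 22 differed between tissues, and the phase of the nodose Npas2 rhythm difference turned (0.20). Muscle and adipocyte covariates gave 56 rhythmic nodose genes in Control and 42 in HepDKO, and turned the Clock genotype effect over all times (0.022) and at ZT4 (0.0068). A single fit of all libraries gave 169 genes for rhythm between tissues. Without the library with Xist counts 33 genes did so, arcuate Arntl in HepDKO was at 0.25 and not called, and its genotype effect was -0.00378.

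Leaving out 1 library at a time, arcuate counts ranged from 287 to 1031 (rhythm), 11 to 117 (Control), 31 to 312 (HepDKO), 2 to 10 (12-hour), 0 to 7 (genotype), 0 to 3 (ZT4) and 0 to 5 (ZT22), nodose counts from 129 to 276 (rhythm), 15 to 71 (Control), and 0 to 1 each (12-hour, genotype, genotype at ZT10), and counts between tissues from 20 to 64 (rhythm) and 0 to 8 (genotype). Arcuate amplitudes ranged from 0.093 to 0.13 for Clock and 0.18 to 0.24 for Npas2, for Arntl from 0.23 to 0.29 in Control and 0.20 to 0.26 in HepDKO, for Clock in HepDKO from 0.12 to 0.19, and for the Npas2 rhythm difference from 0.032 to 0.11. Nodose amplitudes of Clock ranged from 0.14 to 0.29, in Control 0.29 to 0.34 and in HepDKO 0.041 to 0.27, and the Npas2 rhythm difference from 0.047 to 0.49. The arcuate 12-hour component ranged from -0.0025 to 0.019 for Arntl, -0.019 to 0.0048 for Clock and 0.0046 to 0.042 for Npas2. The nodose 12-hour component of Clock ranged from 0.048 to 0.12. Arcuate genotype effects ranged from -0.011 to 0.028 for Arntl over all times, -0.093 to 0.064 for Npas2 at ZT4, -0.028 to 0.12, -0.065 to 0.092 and -0.10 to 0.13 for Arntl, Clock and Npas2 at ZT16, and -0.042 to 0.099 and -0.18 to 0.021 for Arntl and Npas2 at ZT22. Nodose genotype effects ranged from -0.091 to 0.053 for Clock and -0.091 to 0.22 for Npas2 over all times, -0.22 to 0.37 for Arntl and -0.12 to 0.017 for Clock at ZT4, -0.27 to 0.11 for Npas2 at ZT10, -0.56 to 0.67 for Npas2 at ZT16, and -0.046 to 0.15 for Arntl and -0.53 to 0.038 for Clock at ZT22. The tissue difference in genotype effect ranged from -0.049 to 0.087 for Clock and -0.010 to 0.27 for Npas2. The cause of these changes was not tested.

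Pairing by replicate number required every pair to be correlated above 0.1, which was not met: 9 of 84 arcuate and 23 of 84 nodose pairs with the same number were. Of 3 numbers, a library correlated best with its own in 16 of 24 arcuate cases, a hint from the data that numbers may share something there, and in 11 of 24 nodose cases, where replicate 3 moved with 1 sign in both genotypes for Arntl at ZT4 and at ZT16. With a replicate block, nodose Arntl kept an amplitude of 1.79, 677 arcuate and 190 nodose genes were rhythmic, and no call of an activator changed. Depth limits nodose Npas2 most, with 3 to 11 counts in ZT10 libraries.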
